A study of Equus caballus with 20 samples.

Results

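Gene expression was compared between pregnant and cyclic (not pregnant) mares in the oviduct opposite the side of ovulation, called the contralateral oviduct. The comparison holds 10 of the 20 RNA-seq libraries of the study, chosen by their labels: 5 from pregnant mares (PC1 to PC5) and 5 from cyclic mares (CC1 to CC5). All were Warmblood horses sampled 4 days after ovulation, and the RNA came from epithelial cells of the junction of the ampulla and the isthmus of the oviduct. The remaining 10 libraries, from the oviduct on the ovulation side (ipsilateral) of pregnant and cyclic mares, entered the model for its estimate of spread and were compared only where that is said. The design text describes the replicates as biological; no label gives a treatment, an age or whether libraries of the same number come from the same mare. The study asked whether the presence of an embryo is accompanied by a change in the expression of immune genes of the oviduct.

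The oviduct epithelium consists mainly of multiciliated cells, whose beating moves gametes, embryo and fluid, and of secretory cells, with lymphocytes lying between them. Interferons bind receptors that act through Janus kinases and STAT transcription factors, and these switch on a large set of antiviral genes together with genes of antigen presentation. In ruminants the conceptus itself secretes an interferon that tells the mother of pregnancy, whereas no such role of an interferon is established in the horse. In the mare the embryo leaves the oviduct for the uterus while unfertilised eggs are retained, and prostaglandin E2 from the embryo is known to relax the oviduct in that passage.

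The 10 libraries held 3407805 (CC4) to 10015464 (PC4) reads, and 3 reads, the number that a count of 0 still allows, equal 1.75 to 5.01 normalized counts. Markers of multiciliated cells summed to 132444 to 218867 normalized counts in cyclic and 179211 to 236965 in pregnant libraries, and PAX8, a factor of secretory cells, averaged 1744 ± 298 in cyclic and 1687 ± 193 in pregnant mares (SD, n = 5). OVGP1, the oviduct-specific glycoprotein of secretory cells, had only 3 to 6 reads in the pregnant and 0 to 7 in the cyclic libraries, so no fold is given. An unnamed feature, ENSECAG00000014226, took 0.310% (CC5) to 9.75% (PC1) of the reads and mitochondrial transcripts 1.27% (CC2) to 7.24% (PC5). PC4 had the highest mean log2 level of the pregnant libraries for pan-leukocyte, T and NK, MHC class II and mitotic genes. The larger of the printed list medians that it moves by more than 1.5 times are given with and without it. Several medians close to 0 also moved by more than 1.5 times without PC4, and for most of them that value is not printed. In bulk RNA of this kind, fewer cells of a type and less RNA per cell cannot be told apart.

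Of 26740 features in the file, 14692 were above 1 CPM (reads scaled to the column total) in at least 5 of the 20 libraries and were tested, 12430 of them with a symbol. Values are normalized counts, and a log2 difference is pregnant minus cyclic on log2(normalized count + 3.03), with its standard error (SE). By limma 0 of the 14692 features passed an adjusted p of 0.05 (Benjamini-Hochberg; percent called 0). At an unadjusted p under 0.05, 404 were higher in pregnant mares (2.75%) and 265 lower (1.8%), 669 in all. Scaled to the column total without TMM these were 237 and 366, so the balance of higher against lower turns with the scaling. The edgeR quasi-likelihood test on the recovered reads called 0 features (838 unadjusted). DESeq2 called 12 of 11842 with an adjusted p (0.101%; 950 unadjusted), or 6 with its default filtering target. In 46 features (0.313%) the 5 pregnant values were all above the 5 cyclic values, and in 40 (0.272%) all below. The median log2 difference over all tested features was 0.0092, and 7611 (51.8%) had a positive difference. Counts of list members given below are to be read against these shares of all tested features.

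**Figure D1:**
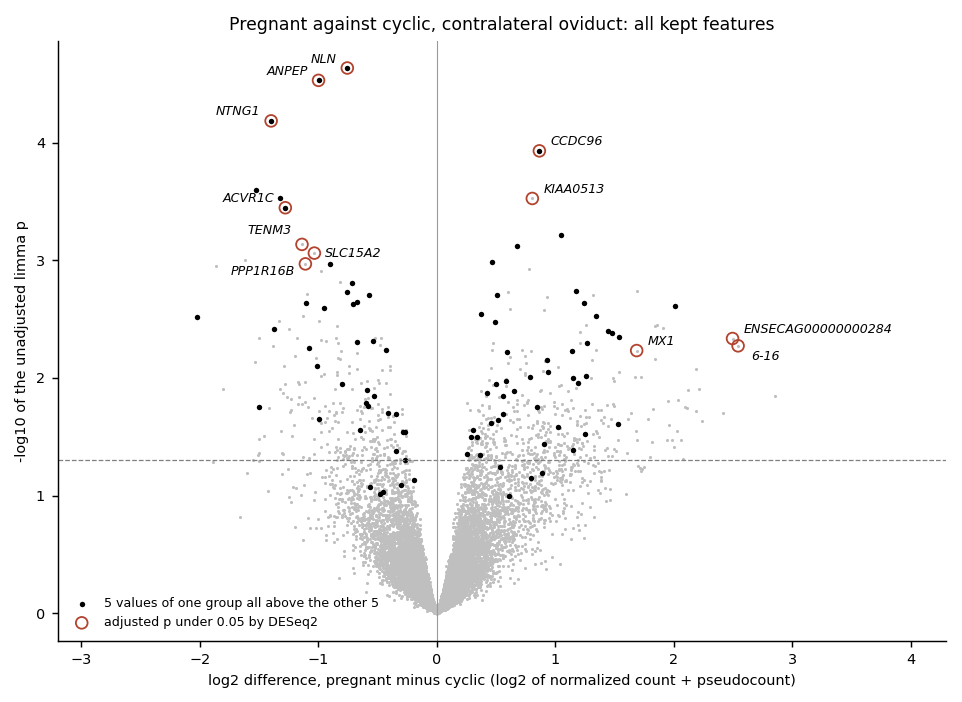
Each point is 1 of the 14692 tested features; the x axis is the log2 difference (pregnant minus cyclic, contralateral oviduct) and the y axis −log10 of the unadjusted limma p, with a dashed line at 0.05. Red rings mark the 12 features called by DESeq2, and black points the 46 and 40 features whose 2 groups of 5 values do not overlap; the smallest p belong to NLN, ANPEP and NTNG1 on the left.

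NLN, ANPEP and SLC15A2, which cleave or take up peptides, were lower in pregnant mares by DESeq2. NLN, neurolysin, an endopeptidase that cleaves neurotensin, bradykinin and other short peptides, had 76.4, 82.0, 77.0, 104 and 112 normalized counts in PC1 to PC5 against 174, 151, 152, 139 and 151 in CC1 to CC5. All 5 pregnant values lay below all 5 cyclic values. The log2 difference was −0.76 ± 0.14 (SE), with adjusted p = 0.218 by limma and 0.00140 by DESeq2. ANPEP, aminopeptidase N of the cell surface, had 473, 369, 349.7, 293 and 349 in PC1 to PC5 against 980.3, 781, 693, 669.6 and 571 in CC1 to CC5, again without overlap. Its mean of 367 ± 65.7 in pregnant mares compared with 739 ± 154 in cyclic mares (SD, n = 5), with a log2 difference of −0.999 ± 0.19 (limma adjusted p = 0.218; DESeq2 0.00243). SLC15A2, the proton-coupled transporter that takes up di- and tripeptides, had 79.7, 128, 89.5, 87.1 and 94.2 in PC1 to PC5 against 257, 327, 269, 132 and 97.7 in CC1 to CC5. CC5 lay within the pregnant range and CC1 to CC3 far above it. DESeq2 called SLC15A2 (log2 −1.19, adjusted p = 0.0194), and limma did not (adjusted p = 0.899).

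Most other members of the peptide list did not reach an unadjusted p of 0.05. Of 34 of 36 peptidases and peptide transporters kept, 20 had a positive and 14 a negative difference, with a median of 0.028 whose sign turned in 7 of 21 alternative settings, among them those without PC2, PC4 or CC4 (−0.013, −0.026 and −0.0067); it was 0.10 without PC1. At an unadjusted p under 0.05 there were 3 lower, NLN, ANPEP and SLC15A2, and 2 higher. The latter were DPP4, a membrane peptidase that trims incretins and chemokines (log2 difference 0.58 ± 0.23), and XPNPEP1, which removes amino acids before proline (0.38 ± 0.16); neither was called, and both are named after their values were seen. FOLH1, glutamate carboxypeptidase II, is outside the list and was noticed after its values were seen. It had 37.7, 81.1, 59.3, 83.0 and 37.7 in PC1 to PC5 against 88.3, 250.2, 162, 88.5 and 96.5 in CC1 to CC5, with no overlap and a difference of −1.11 ± 0.32 (limma adjusted p = 0.991).

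NTNG1 and TENM3, a pair of cell-surface genes known from nerve wiring, were also called by DESeq2. NTNG1, netrin-G1, a lipid-anchored relative of the netrin guidance cues, had 26.9, 37.7, 42.7, 35.1 and 17.7 normalized counts in PC1 to PC5 against 104, 79.3, 56.6, 98.5 and 102 in CC1 to CC5. The groups did not overlap, and the log2 difference of −1.40 ± 0.28 was called by DESeq2 (adjusted p = 0.00555) and not by limma (0.321). TENM3, teneurin-3, a large adhesion protein, had 20.5, 34.9, 49.96, 19.9 and 26.6 (pregnant, PC1 first) and 46.1, 126, 86.4, 55.1 and 47.1 (cyclic), with PC3 above CC1 and CC5 and the other pregnant values below all cyclic ones (DESeq2 adjusted p = 0.0492). NLN, ANPEP and NTNG1 remained called by DESeq2 in each of the 10 fits that left out 1 of the PC or CC libraries, whereas the other called genes did so in 2 to 4 of the 10. TENM3 is outside the axon guidance list, in which 22 of 47 kept members were positive. The median of that list was −0.018 (−0.076 without CC5), and 3 members were higher and 2 lower at an unadjusted p under 0.05. SEMA6A, a transmembrane semaphorin, averaged 229 ± 47.4 in pregnant and 319 ± 42.4 in cyclic mares (−0.48 ± 0.15), SEMA3G, a secreted one, differed by 0.89 ± 0.35, and SLIT1, a secreted ligand of ROBO receptors, by 1.38 ± 0.54 from 0 to 16 reads in the cyclic libraries.

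**Figure D2:**
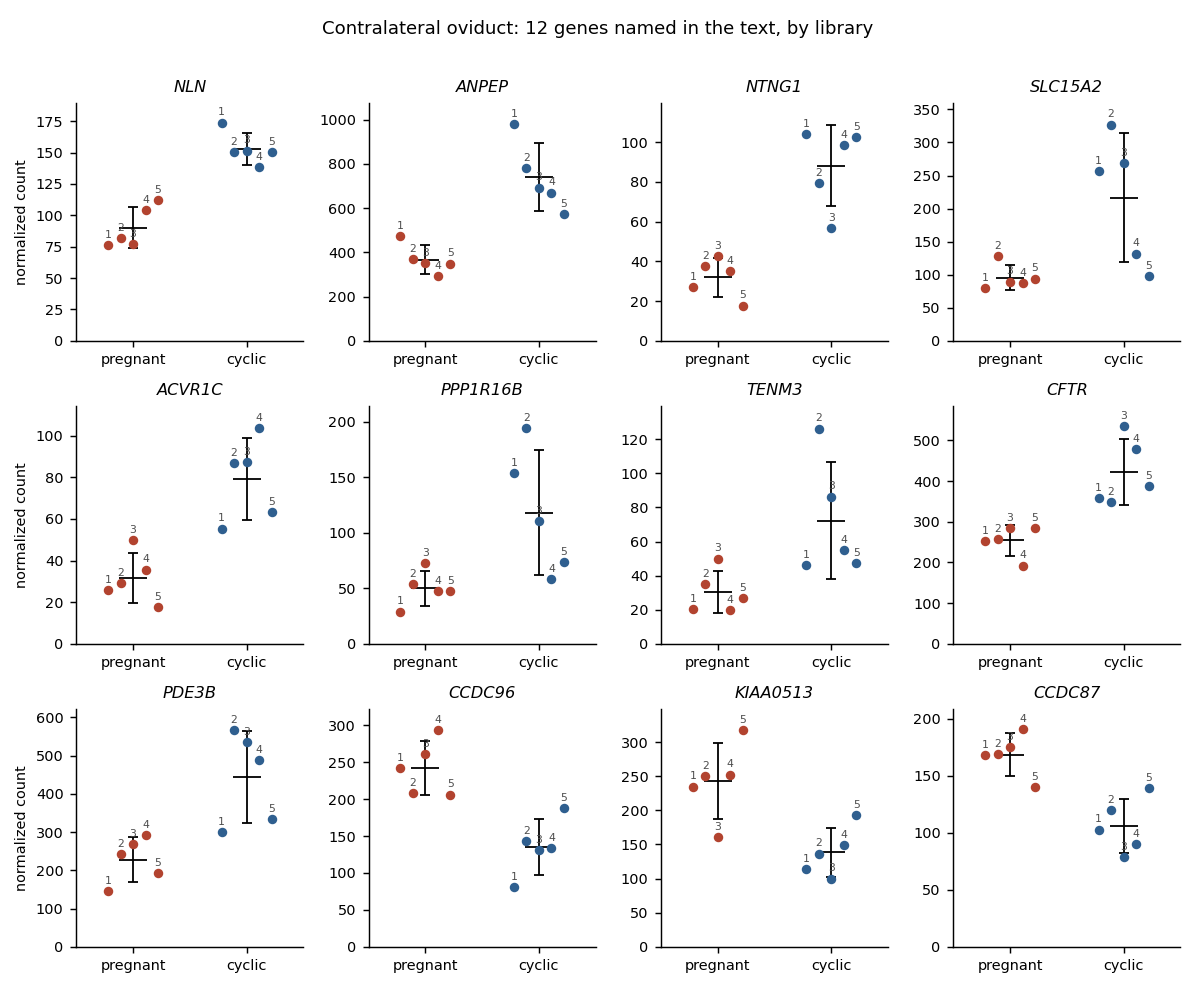
Normalized counts of 12 genes in each contralateral library, pregnant in red and cyclic in blue, each point marked with its replicate number; the bar is the mean and the whiskers 1 SD (n = 5). NLN, ANPEP, NTNG1, ACVR1C, CFTR and PDE3B have all 5 pregnant values below all 5 cyclic values, and CCDC96 and CCDC87 all 5 above.

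Signalling and ion transport genes followed among the lower genes. ACVR1C, the type I receptor ALK7 for activins and nodal, had 25.8, 29.2, 49.96, 35.7 and 17.7 normalized counts in PC1 to PC5 against 55.3, 86.6, 87.3, 104 and 63.2 in CC1 to CC5. The groups did not overlap, and DESeq2 called the difference (limma log2 −1.28 ± 0.30, DESeq2 adjusted p = 0.0492). PPP1R16B, which targets protein phosphatase 1 to the cell membrane, had 29.1, 53.7, 72.9, 47.3 and 47.7 (pregnant, PC1 first) and 154, 194, 110.4, 58.4 and 73.6 (cyclic), with CC4 inside the pregnant range and PC3 close to CC5 (DESeq2 adjusted p = 0.0492). In the activin, BMP and TGF-beta list 22 of 31 kept members were negative, with a median of −0.14, which became −0.014 without PC1, −0.0013 without CC2 and −0.063 without CC3. Of these, 4 were lower and 1 higher at an unadjusted p under 0.05. ACVR1B, the other activin type I receptor, differed by 0.32 ± 0.14, the ligand TGFB2 by −0.52 ± 0.23 and CHRD, a BMP antagonist, by 0.80 ± 0.40. None of these was called.

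CFTR, the chloride channel of epithelial fluid secretion, had 252, 256, 284, 192 and 285 in PC1 to PC5 against 358, 348, 535, 479 and 387 in CC1 to CC5, with no overlap and a log2 difference of −0.72 ± 0.20 (limma adjusted p = 0.970). The calcium-activated chloride channel ANO1 differed by −0.65 ± 0.26 and SCNN1G, a subunit of the epithelial sodium channel named after its values were seen, by −0.78 ± 0.36. AQP4, a water channel, went the other way (0.86 ± 0.34) on low counts of 2 to 29 reads, and ATP12A, a proton pump, differed by 1.22 ± 0.80. Over the 27 kept genes of fluid secretion the median was −0.026, between −0.087 without CC5 and 0.049 without PC1, with 1 higher and 3 lower at an unadjusted p under 0.05. KCNMA1, the pore of the large-conductance potassium channel, outside the list, averaged 181 ± 54.1 in pregnant and 296 ± 57.5 in cyclic mares (−0.73 ± 0.19; limma adjusted p = 0.899).

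In cyclic nucleotide signalling, 23 of 39 kept members were negative. At an unadjusted p under 0.05, 4 were lower (1.8% of all tested features were) and 0 higher. The median was −0.088 (0.035 without PC2, −0.039 without PC5, −0.037 without CC2 and −0.049 without CC4). PDE3B, which breaks down cAMP, had 145, 242, 269, 292 and 193 in PC1 to PC5 against 299, 566, 535, 488 and 334 in CC1 to CC5. Every pregnant value was below every cyclic one (−0.95 ± 0.28; limma adjusted p = 0.997). RAPGEF4, the cAMP-activated exchange factor EPAC2, outside the list, also did not overlap, with 136, 151, 171, 90.0 and 129 against 249, 178, 281, 384 and 201 (−0.90 ± 0.24). NPR3, the clearance receptor of natriuretic peptides, differed by −0.74 ± 0.25, the adenylyl cyclase ADCY8 by −1.30 ± 0.48 from 0 to 18 reads in pregnant libraries, and PDE1A by 0.52 ± 0.34. None of these genes was called by any of the 3 tests.

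Metalloproteases split by member. MMP7, matrilysin, an epithelial protease, had 9.69, 33.9, 8.33, 25.1 and 12.2 in PC1 to PC5 against 87.0, 76.9, 95.0, 25.0 and 28.7 in CC1 to CC5, and CC4 and CC5 lay within the pregnant range (−1.62 ± 0.42; limma adjusted p = 0.899). ADAMTS18 had 1 to 23 reads in pregnant and 12 to 54 in cyclic libraries (−1.86 ± 0.49), and TIMP4, an inhibitor, 2 to 17 and 0 to 4 (0.85 ± 0.40). The 26 kept members had a median of −0.051 (0.015 without CC3, 0.0045 without PC1, 0.0021 without CC2, −0.10 without PC2 and −0.12 without CC4), 1 higher and 2 lower at an unadjusted p under 0.05. LRCH2, a leucine-rich repeat protein, had 1 to 6 reads in pregnant and 4 to 34 in cyclic libraries (−1.53 ± 0.35), and DESeq2 gave it no adjusted p.

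Growth factors of the connective tissue were lower as single genes. KITLG, the stem cell factor, had 4.31, 15.1, 4.16, 14.6 and 14.4 in PC1 to PC5 against 27.7, 28.1, 21.1, 23.4 and 17.2 in CC1 to CC5, without overlap (−1.08 ± 0.35; limma adjusted p = 1). FGF7, a fibroblast product that acts on epithelium, had 1 to 5 reads in pregnant and 3 to 44 in cyclic libraries (−1.499 ± 0.47), and HGF, another such factor, differed by −0.87 ± 0.33, against 0.61 ± 0.58 for the receptor FGFR4. In this list of other growth factors and receptors 21 of 32 kept members were negative (median −0.22, −0.091 without CC2 and −0.12 without CC3), with 3 lower and 0 higher at an unadjusted p under 0.05. In the insulin-like growth factor system 12 of 16 were negative, with a median of −0.36 (−0.064 without CC3); STC2, stanniocalcin-2, differed by −0.85 ± 0.34, the adaptor IRS1 by −0.36 ± 0.20, IRS2 by −0.49 ± 0.29 and IGFBP6 by 0.83 ± 0.49. Stromal fibroblast and matrix genes were negative in 22 of 26 (median −0.35), and 0 of them reached an unadjusted p of 0.05. That median was −0.18 without CC2, −0.084 without CC3, −0.60 without CC5 and −0.22 without PC2. Summed stromal levels were 6176 to 11122 in pregnant and 6701 to 16982 in cyclic libraries and overlapped. The stromal levels of CC2 and CC3 were the highest of the 10, and the part of stromal RNA in the growth factor differences was not tested. COL1A2, a chain of type I collagen, averaged 633 ± 387 and 1060.4 ± 637 (SD, n = 5; log2 −0.68 ± 0.48, −0.40 without CC2).

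Genes of motile cilia were higher by a small amount, and one of them was called. CCDC96, a coiled-coil protein of the ciliary axoneme, had 242, 208, 261, 293 and 206 in PC1 to PC5 against 80.4, 143, 131, 134 and 187 in CC1 to CC5. All pregnant values were above all cyclic values, with a log2 difference of 0.86 ± 0.18 (limma adjusted p = 0.432; DESeq2 0.0194). CCDC87, another coiled-coil gene, outside the list, had 168, 169, 175, 191 and 139.7 (pregnant, PC1 first) and 103, 119.6, 78.7, 90.2 and 139 (cyclic), which again did not overlap although PC5 and CC5 were nearly equal (0.67 ± 0.17). CDC14A, a phosphatase found at centrosomes and cilia, did not overlap either, with 887 ± 93.7 against 644 ± 86.5 (0.46 ± 0.12; limma adjusted p = 0.899). Of 61 of 66 structural genes of multiciliated cells kept, 57 had a positive difference (51.8% of all features did). At an unadjusted p under 0.05, 6 were higher (2.75% of all) and 0 lower, and the median was 0.23 (0.15 without PC1). The list's mean log2 level was 10.66, 10.32, 10.37, 10.31 and 10.35 in PC1 to PC5 against 9.93, 9.89, 10.20, 10.29 and 10.61 in CC1 to CC5. CC5 exceeded 4 of the 5 pregnant libraries, and CC1 and CC2 were the lowest.

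None of the other named cilia genes was called. CCDC40, needed to assemble the inner dynein arms, differed by 0.39 ± 0.15, the radial spoke gene RSPH3 by 0.42 ± 0.17, the dynein heavy chain DNAH5 by 0.29 ± 0.16 and DNAH8 by −0.25 ± 0.40. Among regulators of the multiciliated fate 12 of 16 were positive with a median of 0.16 (0.082 without PC2, 0.30 without CC5), and 0 reached an unadjusted p of 0.05. FOXJ1, the master switch of motile cilia, averaged 5016 ± 1009 and 4021 ± 824 (0.32 ± 0.18; 0.19 without CC4), MYB differed by 0.27 ± 0.15, RFX2 by 0.29 ± 0.17 and GMNC, which starts the programme, by −0.45 ± 0.35. A larger share of multiciliated cells and more such RNA per cell cannot be told apart here.

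The other genes with the smallest p among those higher in pregnant mares had varied roles. KIAA0513, a gene of little known function, was called by DESeq2 (235, 249.8, 161, 253 and 318 in PC1 to PC5 against 113, 137, 99.8, 149 and 193 in CC1 to CC5; adjusted p = 0.0492), with PC3 within the cyclic range. RTP3, of the receptor transporter family, averaged 124 ± 36.7 and 58.5 ± 15.9, and STOX1, a winged-helix transcription factor, 630.3 ± 35.7 and 446 ± 69.8; neither overlapped between groups. EEF2K, the kinase that slows elongation of translation, differed by 0.77 ± 0.21, HK1, the hexokinase that starts glycolysis, by 0.60 ± 0.17, UNC5CL by 1.32 ± 0.37 and AMPD3, an AMP deaminase, by 0.93 ± 0.26. CENPM, a centromere protein, had 6 to 60 reads in pregnant and 0 to 13 in cyclic libraries (1.69 ± 0.47). EID2B had 4 to 11 and 0 to 3 reads, the latter at the floor, so no fold is given. None of these except KIAA0513 was called.

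Interferon genes were followed from ligand to effector. Of 9 interferon ligands listed by common symbol only 3 were found (IFNE, IFNG and IFNK), and the others could not be counted. Few reads fell on the ligand genes found. The alpha, omega and delta genes found under equine names had 0 to 2 reads in total per group. IFNG had 0 reads in the pregnant and 2 in the cyclic libraries, and IFNE 6 and 17. IFNK, an interferon of epithelia, was the exception with 111 reads in the pregnant and 125 in the cyclic group (−0.42 ± 0.44). Receptors and kinases, named here for their role after their values were seen, differed by less than their SE: IFNAR1 by −0.024 ± 0.21, IFNGR1 by 0.10 ± 0.23, IFNGR2 by −0.069 ± 0.31, JAK1 by −0.037 ± 0.23 and TYK2 by −0.092 ± 0.15, and the median of 12 of 17 kept receptors, kinases and STATs was −0.0066, with a sign that turned in 6 of 21 alternative settings. STAT2, which carries the signal, averaged 922 ± 537 in pregnant and 449.9 ± 134 in cyclic mares (0.87 ± 0.42), and STAT3 differed by 0.25 ± 0.18.

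Regulatory factors, sensors and effectors were higher on average in pregnant mares, and PC1, PC3 and PC4 had mean log2 levels above every cyclic library in each of these lists, PC2 and PC5 within the cyclic range. IRF7, which amplifies the interferon response, had 931, 103, 1628, 1202 and 99.8 in PC1 to PC5 against 94.9, 100.1, 155, 45.1 and 109 in CC1 to CC5. The values of PC2 and PC5 lay within the cyclic range and those of PC1, PC3 and PC4 above it (2.23 ± 0.91; limma adjusted p = 1). IRF9, the DNA-binding partner of the STAT proteins, differed by 1.15 ± 0.50, IRF1 by 0.67 ± 0.35 and IRF5 by −0.18 ± 0.28. Of the 9 factors 8 were positive with a median of 0.46, which was 0.21 without PC4 and 0.26 without CC4.

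Among sensors of foreign nucleic acid, 12 of 14 were positive, with a median of 0.50 (0.33 without PC4). At an unadjusted p under 0.05, 5 were higher (2.75% of all tested features were) and 0 lower. ZNFX1, a helicase that binds viral RNA, averaged 4971 ± 1898 and 2519 ± 423 and was above all cyclic values in 4 of 5 pregnant libraries (0.91 ± 0.26). DHX58 differed by 1.67 ± 0.59, IFIH1, the sensor MDA5, by 1.10 ± 0.41, and TLR7 by −0.069 ± 0.44.

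Antiviral effectors had the highest median among lists with more than 10 kept members. Of 36 of 46 genes kept, 35 had a positive difference (51.8% of all features did), 19 of them at an unadjusted p under 0.05 and 0 lower, and the median was 1.16 (0.87 without PC4). MX1, a GTPase that traps viral particles, had 6768, 1365, 4522, 5687 and 1028 in PC1 to PC5 against 777, 948, 927, 706 and 1453 in CC1 to CC5. DESeq2 called MX1 (adjusted p = 0.0492), and limma gave 1.69 ± 0.55 with adjusted p = 1. A gene listed as 6-16, the older name of IFI6, had 1208, 132, 1614, 1582 and 121 (pregnant, PC1 first) and 83.0, 110.4, 114, 33.4 and 183 (cyclic), and was called likewise (log2 2.54 ± 0.82; DESeq2 adjusted p = 0.0492). The unnamed feature ENSECAG00000000284 had 228, 20.7, 129, 205 and 21.1 (pregnant, PC1 first) and 1.32, 15.3, 11.5, 11.7 and 34.5 (cyclic), with the same libraries high (DESeq2 adjusted p = 0.0492). In all 3 genes PC1, PC3 and PC4 were above every cyclic library, while PC2 and PC5 lay within the cyclic range. DESeq2 called each of the 3 in 3 of the 10 fits that left out 1 library, and in none of those without PC1, PC3 or PC4.

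Other effectors were high in the same libraries without a call. ISG15, the ubiquitin-like modifier, had 310.0, 21.7, 285, 461 and 46.6 in PC1 to PC5 against 19.8, 36.0, 33.6, 13.4 and 42.5 in CC1 to CC5, where PC5 was only just above the highest cyclic value. BST2, tetherin, which holds budding virus at the membrane, had 62.4, 17.0, 93.7, 96.4 and 13.3 (pregnant, PC1 first) and 7.91, 9.15, 9.597, 6.68 and 13.8 (cyclic), with PC5 alone inside the cyclic range (1.91 ± 0.58), and RTP4, an interferon-induced receptor transporter, differed by 1.21 ± 0.38. RSAD2, viperin, had 1 to 76 reads in pregnant and 0 to 8 in cyclic libraries (1.23 ± 0.55). SAMHD1, which depletes the nucleotides needed for viral replication, was the single negative member (−0.36 ± 0.23). OAS2, an enzyme that makes an antiviral messenger from ATP, was the only effector of the OAS and IFIT families whose groups did not overlap: 3427, 1307, 3982, 4663 and 1269 in PC1 to PC5 against 1011, 985, 1156, 808 and 1064 in CC1 to CC5 (1.34 ± 0.40; limma adjusted p = 1; DESeq2 0.0579). IFIT1, which binds foreign RNA caps, differed by 2.11 ± 0.82 and OASL by 1.64 ± 0.65; all 6 kept members of these families were positive, with a median of 1.13.

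**Figure D3:**
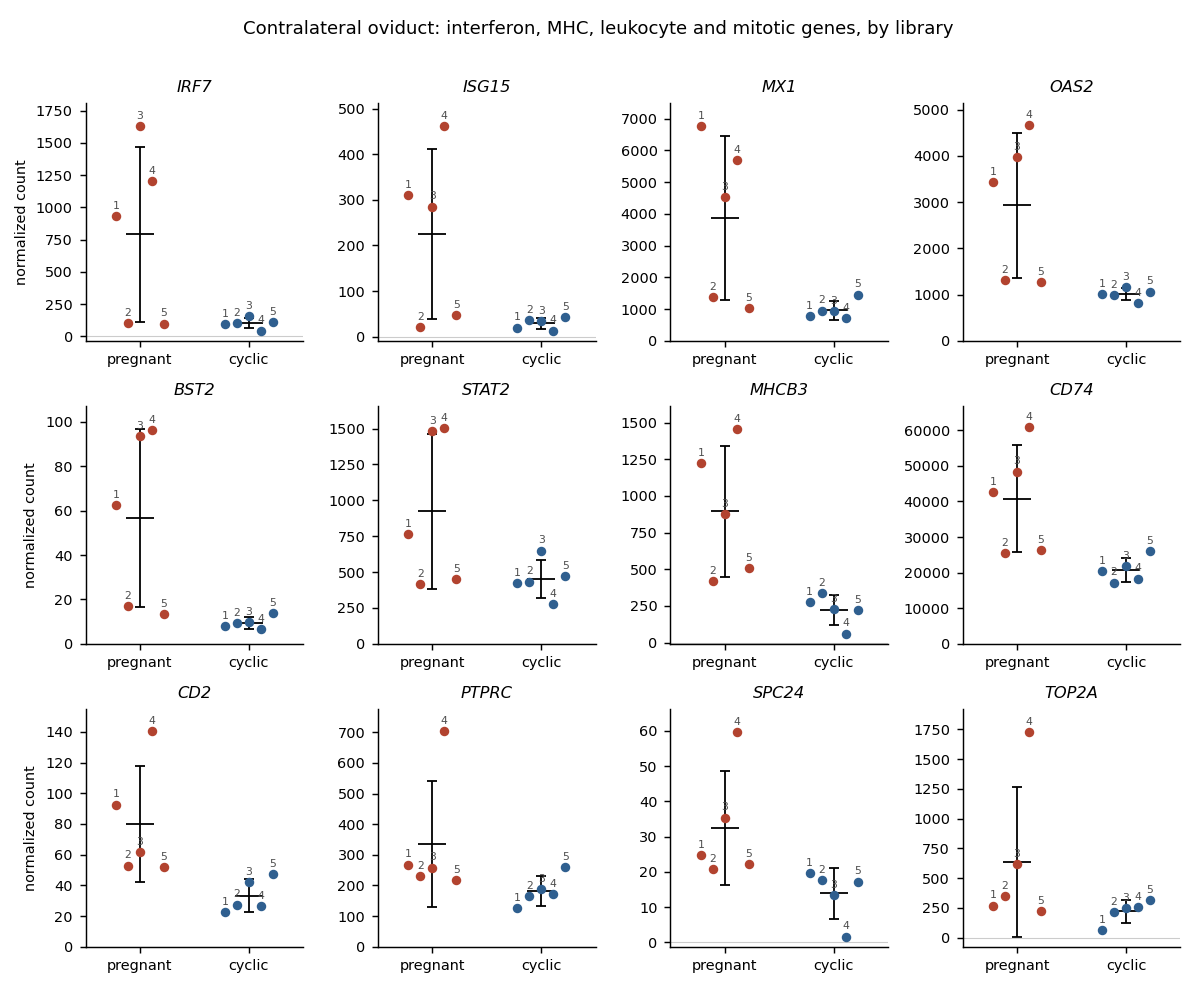
Normalized counts of 12 interferon, MHC, leukocyte and mitotic genes in each contralateral library (pregnant red, cyclic blue, replicate number at each point; bar and whiskers are mean and SD, n = 5). Libraries 1, 3 and 4 are high among the pregnant for IRF7, ISG15, MX1 and BST2, whereas PTPRC and TOP2A are highest in PC4, at 704 and 1728.

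Antigen presentation genes had positive medians in both classes, and PC4 had the highest mean log2 level of both lists, followed by PC3. The deposited table lists horse class I heavy chains under equine names, noticed after their values were seen. MHCB3 had 1223, 421, 875, 1453 and 507 in PC1 to PC5 against 274, 337, 229, 61.8 and 224 in CC1 to CC5, with no overlap (2.01 ± 0.58; limma adjusted p = 0.997). EQMHCC1 had 1294, 1178, 608, 3794 and 836 (pregnant, PC1 first) and 44.8, 1367, 67.2, 382 and 846 (cyclic), with PC4 alone above all cyclic values (2.19 ± 0.86), and MHC-1 differed by −0.31 ± 0.37. These chains are polymorphic between animals and near-identical between copies, so the counting could have split their reads. B2M, the light chain, averaged 16838 ± 11930.1 and 6559 ± 2476 (1.14 ± 0.56), TAP1, which pumps peptides to class I molecules, 719 ± 507 and 233 ± 123 (1.496 ± 0.58), and the chaperone CANX differed by −0.085 ± 0.25. Of 16 class I and loading genes 15 were positive (51.8% of all features were). EQMHCC1 counts in this list and also in that of the equine-named heavy chains, so these lists are not separate. At an unadjusted p under 0.05, 2 were higher (2.75% of all) and 0 lower. The median of 0.38 was 0.19 without PC4, 0.21 without CC4 and 0.014 without both.

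In the class II pathway, CD74, the invariant chain that guards the peptide groove, had 42623, 25435, 48385, 60917 and 26441 in PC1 to PC5 against 20520.0, 17222, 21923, 18343 and 25994 in CC1 to CC5. PC2 lay just below the highest cyclic value and the other 4 pregnant libraries above it (0.90 ± 0.35; limma adjusted p = 1). CIITA, the master regulator of class II genes, averaged 772 ± 289 and 418 ± 165, HLA-DOB differed by 1.44 ± 0.60, the promoter factor RFX5 by 0.55 ± 0.25 and its partner RFXANK by −0.27 ± 0.17. Of 13 genes of this pathway 10 were positive, with a median of 0.55 (0.36 without PC4 and CC4). At an unadjusted p under 0.05, 4 were higher (2.75% of all tested features were) and 0 lower. The equine-named class II chains were positive in all 8 cases, with a median of 0.78 (0.49 without PC4 and 7 of 8 positive). EQCA-DQB3 differed by 1.26 ± 0.38, DRA by 0.67 ± 0.32, DQA_1, whose groups did not overlap, by 0.89 ± 0.45, and DQA_2 by 0.39 ± 0.99; reads of these copies could likewise be shared.

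T and NK cell genes had a positive median as well, with the highest level in PC4. CD2, an adhesion molecule of T and NK cells, had 92.6, 52.8, 61.4, 140.3 and 52.1 in PC1 to PC5 against 22.4, 27.5, 42.2, 26.7 and 47.1 in CC1 to CC5, with no overlap (1.14 ± 0.37; limma adjusted p = 1). TRAT1, a T cell receptor adaptor, had 10 to 67 reads in pregnant and 0 to 9 in cyclic libraries, and PRF1, the pore-forming protein of killer cells named after its values were seen, 19 to 171 and 7 to 25; neither overlapped in normalized counts. CD3G, which carries the signal of the T cell receptor, differed by 1.34 ± 0.44, CD3E by 0.86 ± 0.45 (0.51 without PC4), the cytotoxic granzyme GZMA by 0.78 ± 0.55 (0.34 without PC4) and GZMK by −0.13 ± 0.43. Of 24 of 35 T and NK markers kept, 22 were positive (51.8% of all features were). At an unadjusted p under 0.05, 11 were higher (2.75% of all) and 0 lower. In 3 the pregnant values were all above the cyclic ones (0.313% of all). The median was 0.92, 0.61 without PC4 and 0.44 without PC4 and CC4. The summed T and NK level was 551 to 1879 normalized counts in pregnant and 311 to 692 in cyclic libraries, and CTLA4 was at 0 in all libraries.

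Genes shared by all leukocytes were positive in 18 of 18, with a median of 0.50, and 0 reached an unadjusted p of 0.05. PTPRC, CD45 of leukocytes, had 268, 231, 258, 704 and 218 in PC1 to PC5 against 125, 164, 187, 172 and 259.8 in CC1 to CC5. PC4 was far above the rest, PC1 just above the cyclic maximum, and the other 3 within the cyclic range, and the log2 difference of 0.76 ± 0.38 was 0.45 without PC4. The median of the list was 0.22 without PC4, 0.28 without CC4 and 0.045 without both. RAC2, a GTPase of blood cells, differed by 1.03 ± 0.52, the integrin ITGAL by 0.59 ± 0.31 and ITGB2 by 0.011 ± 0.51. B and plasma cell markers were negative in 8 of 8 with a median of −0.16 (−0.37 without PC3, −0.31 without CC1, −0.10 without CC2 and −0.11 without CC4), among them PRDM1 at −0.46 ± 0.23 and BANK1 at −0.040 ± 0.14. Markers of monocytes, macrophages and dendritic cells had a median of 0.19 (−0.047 without PC4, 0.11 without CC1 and 0.11 without CC4, but 0.30 without PC1, 0.30 without PC5 and 0.33 without CC2), and the integrin ITGAM had 30.1, 78.2, 63.5, 67.8 and 68.7 in PC1 to PC5 against 96.2, 162, 115, 68.5 and 108 in CC1 to CC5 (−0.81 ± 0.27). C1QC, a complement chain made by macrophages, differed by 0.60 ± 0.38. Summed pan-leukocyte levels were 1509.9 to 5312 in pregnant and 1212 to 2165 in cyclic libraries, with the maximum in PC4. The part of leukocyte RNA in the MHC and interferon lists was not tested.

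Chemokines and complement completed the immune lists. CXCL10, an interferon-induced attractant of activated T cells, had 45.2, 36.8, 248, 244 and 73.2 in PC1 to PC5 against 5.27, 8.54, 43.2, 20.04 and 95.4 in CC1 to CC5, where only PC3 and PC4 exceeded all cyclic values (1.96 ± 0.81). CCL2, which draws monocytes, differed by 0.90 ± 0.41, CCL5 by 1.08 ± 0.54 and CXCL12 by −0.64 ± 0.35; of 11 chemokines 9 were positive, 2 at an unadjusted p under 0.05 and 0 lower, with a median of 0.64 (1.01 without PC2 and 0.32 without CC4). In the complement list 11 of 12 were positive, with a median of 0.37. C3AR1, the receptor of the fragment C3a, had 44.1, 28.3, 37.5, 97.6 and 27.7 (pregnant, PC1 first) and 14.5, 26.8, 21.1, 13.4 and 23.0 (cyclic) and did not overlap (1.02 ± 0.43). The inhibitor SERPING1 differed by 1.21 ± 0.61, C2 by 1.73 ± 0.87, C7 by −0.31 ± 0.28 and the chaperone CLU by 0.44 ± 0.31 (0.17 without CC4, 0.28 without PC4 and 0.0063 without both). In cytokines and their receptors 14 of 21 were positive with a median of 0.11 (0.057 without PC4, 0.20 without CC2), IL1RN at 0.82 ± 0.46 and TNFSF10, the death ligand TRAIL, at 0.70 ± 0.43. MUC1, a membrane mucin, differed by −0.76 ± 0.35 and PIGR, which carries antibodies across the epithelium, by 1.19 ± 0.58. Genes of pattern recognition and NF-kappaB had a median of −0.016, with TLR2 at 0.37 ± 0.28 and CARD9 at −0.43 ± 0.33 and 0 of 21 at an unadjusted p under 0.05.

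**Figure D4:**
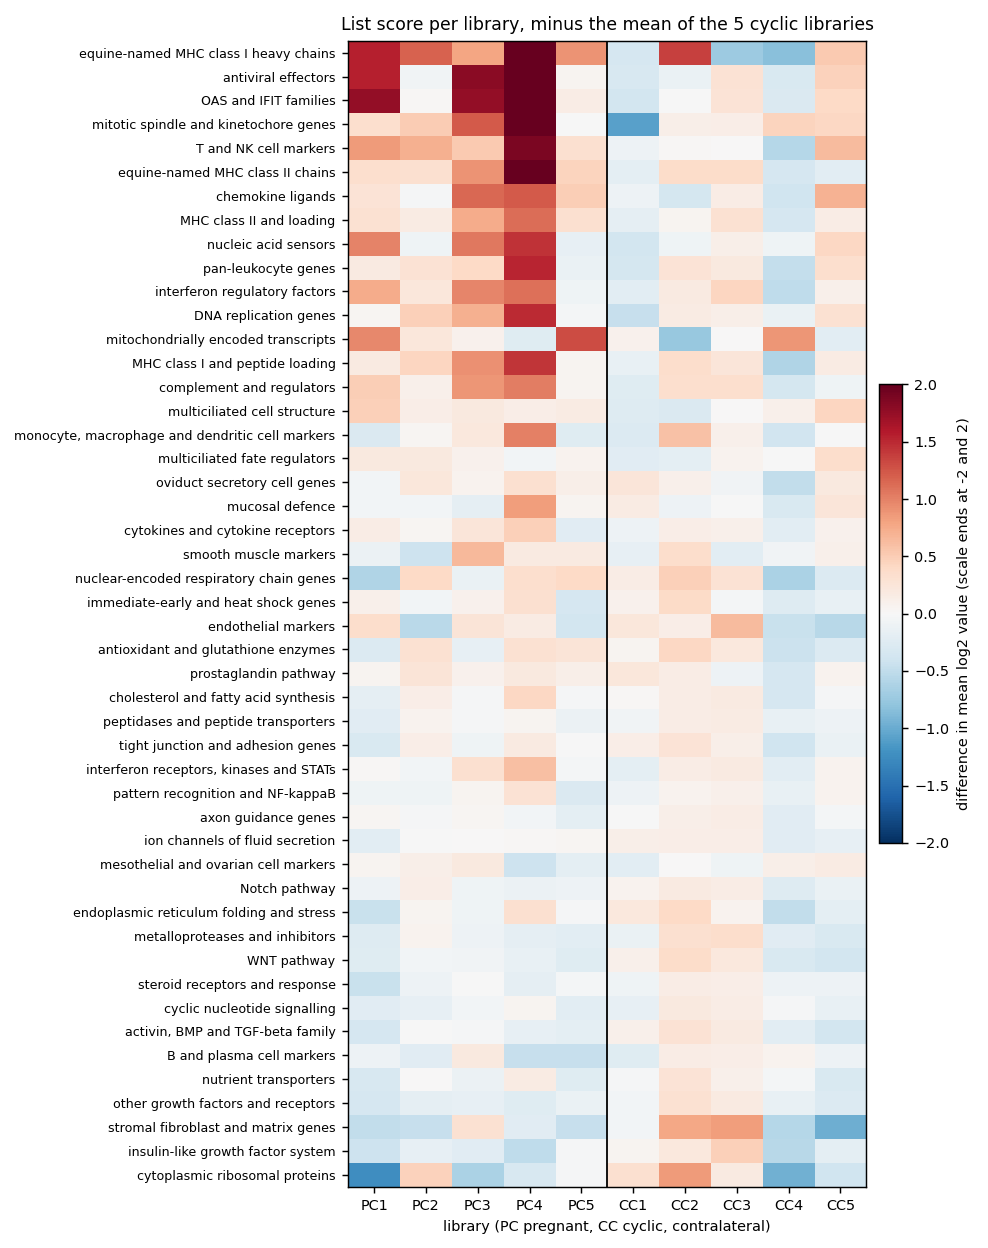
Each cell is the mean log2 value of a gene list's kept members in 1 library minus the mean of the 5 cyclic libraries, for 48 lists with at least 3 kept members; the colour scale ends at −2 and 2. PC1, PC3 and PC4 are red for the antiviral, OAS and IFIT lists, PC4 also for leukocyte, MHC and mitotic lists, and CC1 is the lowest library for the mitotic list.

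Genes of cell division were higher in pregnant mares, with all 45 kept members of the mitotic spindle and kinetochore list positive and a median of 0.95. At an unadjusted p under 0.05, 9 were higher (2.75% of all tested features were) and 0 lower. The mean log2 level of the list was 5.86, 6.02, 6.74, 7.66 and 5.50 in PC1 to PC5 against 4.44, 5.63, 5.65, 5.96 and 5.93 in CC1 to CC5. PC3 and PC4 were highest, CC1 lowest, and PC1 and PC5 lay within the cyclic range. Without PC4 the median was 0.59, with 43 of 45 positive, and without CC1 it was 0.62. SPC24 and NUF2, which tie chromosomes to the spindle in one complex, did not overlap between groups: SPC24 had 24.8, 20.7, 35.4, 59.6 and 22.2 (pregnant, PC1 first) and 19.8, 17.7, 13.4, 1.67 and 17.2 (cyclic), and NUF2 26.9, 23.6, 47.9, 119 and 25.5 (pregnant, PC1 first) and 2.64, 17.7, 21.1, 23.4 and 21.8 (cyclic). TOP2A, which untangles DNA in dividing cells, had 269, 348, 618, 1728 and 225 in PC1 to PC5 against 64.6, 216, 251, 259 and 318 in CC1 to CC5 (1.24 ± 0.60; 0.77 without PC4; limma adjusted p = 1). ANLN, needed for the cleavage furrow, differed by 1.38 ± 0.56, the mitotic kinase CDK1 by 1.07 ± 0.52 (0.62 without CC1 and 0.70 without PC4) and the centromere histone CENPA by 0.070 ± 0.40.

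DNA replication genes were positive in 27 of 28, with a median of 0.45 (0.24 without PC4, 0.17 without PC4 and CC4). ORC1 of the origin recognition complex differed by 0.99 ± 0.38, the licensing factor CDT1 by 1.22 ± 0.51, the primase subunit PRIM1 by 0.46 ± 0.21 and ORC6 by −0.090 ± 0.23; 4 were higher at an unadjusted p under 0.05 and 0 lower. PC4 had both the highest mitotic score and the highest T and NK score, 7.66 and 5.82, and whether the dividing cells were epithelial or lymphoid was not tested.

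Prostaglandin genes differed one by one. PTGER2, a receptor of prostaglandin E2, had 161, 187, 234, 174 and 177 in PC1 to PC5 against 132, 114, 141, 144 and 145 in CC1 to CC5, with no overlap and a log2 difference of 0.45 ± 0.19 (limma adjusted p = 1). PTGDR, a receptor of prostaglandin D2, had 156, 66.9, 28.1, 64.3 and 26.6 (pregnant, PC1 first) and 14.5, 2.44, 4.80, 3.34 and 71.3 (cyclic), where CC5 was within the pregnant range and CC1 to CC4 below it (2.18 ± 0.75). ABCC4, an exporter of prostaglandins, differed by −0.36 ± 0.15, the importer SLCO2A1, named after its values were seen, by 1.04 ± 0.47, and PTGES, a synthase of prostaglandin E2, by −0.89 ± 0.44 on 1 to 12 reads in pregnant and 2 to 30 in cyclic libraries. The 16 kept genes of the pathway were 8 positive and 8 negative. Among steroid receptors and response genes 16 of 24 were negative with a median of −0.086 (from −0.045 without CC3 to −0.13 without PC5). ESR2, an estrogen receptor, averaged 277 ± 165 and 483 ± 134 (−0.95 ± 0.39), ESR1 1994 ± 441 and 2739 ± 1004 (−0.40 ± 0.24; −0.25 without PC1 and −0.61 without CC4), FKBP5, a glucocorticoid and progesterone response gene, differed by −0.51 ± 0.23, and STS by 0.51 ± 0.39.

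Secretory cell genes had a median of 0.15 over 16 kept members (0.048 without PC3, 0.093 without CC3 and 0.072 without CC4). PAX8, their lineage factor, averaged 1687 ± 193 and 1744 ± 298, a difference of −0.039 ± 0.15 that changed sign in 6 of 23 alternative settings. WNT pathway genes were negative in 27 of 36 with a median of −0.065, between −0.038 without CC2 and −0.22 without CC5. LEF1 and TCF7, transcription factors of that pathway, went in opposite directions, at −0.68 ± 0.22 and 0.70 ± 0.24, and the ubiquitin ligase ZNRF3 at −0.39 ± 0.16. In the Notch list MAML3, a coactivator, differed by −0.46 ± 0.18 and HEYL by −0.28 ± 0.18. Nutrient transporters were negative in 14 of 24 (median −0.16; −0.046, −0.079 and −0.055 without PC1, PC5 and CC2), SLC43A1 at −0.86 ± 0.31 and SLC43A2, both carriers of neutral amino acids, at 0.48 ± 0.17.

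A pair of housekeeping families had 1 sign in all their kept members. Cytoplasmic ribosomal proteins were negative in 57 of 57 kept of 78, with a median of −0.37, although 0 reached an unadjusted p of 0.05. Their mean log2 level was 10.52, 12.22, 11.13, 11.44 and 11.74 in PC1 to PC5 against 12.08, 12.62, 11.95, 10.80 and 11.37 in CC1 to CC5, with PC1 the lowest and the rest overlapping. The median was −0.15 without PC1, −0.15 without CC2, −0.55 without PC2 and −0.61 without CC4. RPS24 differed by −0.52 ± 0.29, RPL5 by −0.43 ± 0.24 and RPS6 by −0.49 ± 0.29. Mitochondrially encoded transcripts were positive in 13 of 13, with a median of 0.45, 0.26 without PC5 and 0.21 without CC2; ATP6, a subunit of ATP synthase, had 16008, 18793, 8354, 12541 and 39710.3 (pregnant, PC1 first) and 8559, 2739.8, 7889, 14323 and 5939.8 (cyclic) (1.26 ± 0.51). The members share the same 10 libraries and are not independent of each other. Among antioxidant enzymes, GSTA4, a glutathione transferase, had 219.6, 185, 192, 164 and 222 (pregnant, PC1 first) and 259.6, 279, 269, 429 and 249 (cyclic), without overlap (−0.57 ± 0.16), and NQO1, a quinone reductase, differed by 0.91 ± 0.31.

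The remaining lists had medians close to 0 or resting on few genes. The median was 0.0030 for tight junctions, 0.036 for cholesterol and fatty acid synthesis, 0.061 for antioxidant enzymes, 0.094 for the respiratory chain, −0.047 for endoplasmic reticulum folding, 0.075 for immediate-early genes, 0.067 for endothelial and −0.032 for mesothelial markers. The sign of each of these medians turned in 3 to 8 of 21 alternative settings. JUP, plakoglobin of cell junctions, differed by 0.29 ± 0.18, FADS2, a fatty acid desaturase, by 0.49 ± 0.30, PRDX5, a peroxidase, by 0.66 ± 0.33, XBP1, a factor of the unfolded protein response, by −0.27 ± 0.30 and NR4A1, an immediate-early gene, by −0.67 ± 0.26. PLVAP, an endothelial marker, averaged 43.7 ± 22.4 and 57.8 ± 33.9. WT1, listed both with mesothelial and ovarian markers and with secretory cell genes, averaged 2079 ± 564 and 1744 ± 241. Smooth muscle markers had a median of 0.10 (0.18 without CC2, 0.0021 without CC3), and MYH11, their myosin, differed by −0.26 ± 0.55, with a sign that turned in 5 of 23 settings. Markers of neutrophils and mast cells summed to 15.5 to 85.3 normalized counts in pregnant and 15.0 to 89.7 in cyclic libraries, and those of erythrocytes to 1.75 to 7.54 and 1.92 to 8.35. Among stromal genes POSTN, periostin, differed by 0.76 ± 0.58 and COL6A3 by −0.56 ± 0.35.

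**Figure D5:**
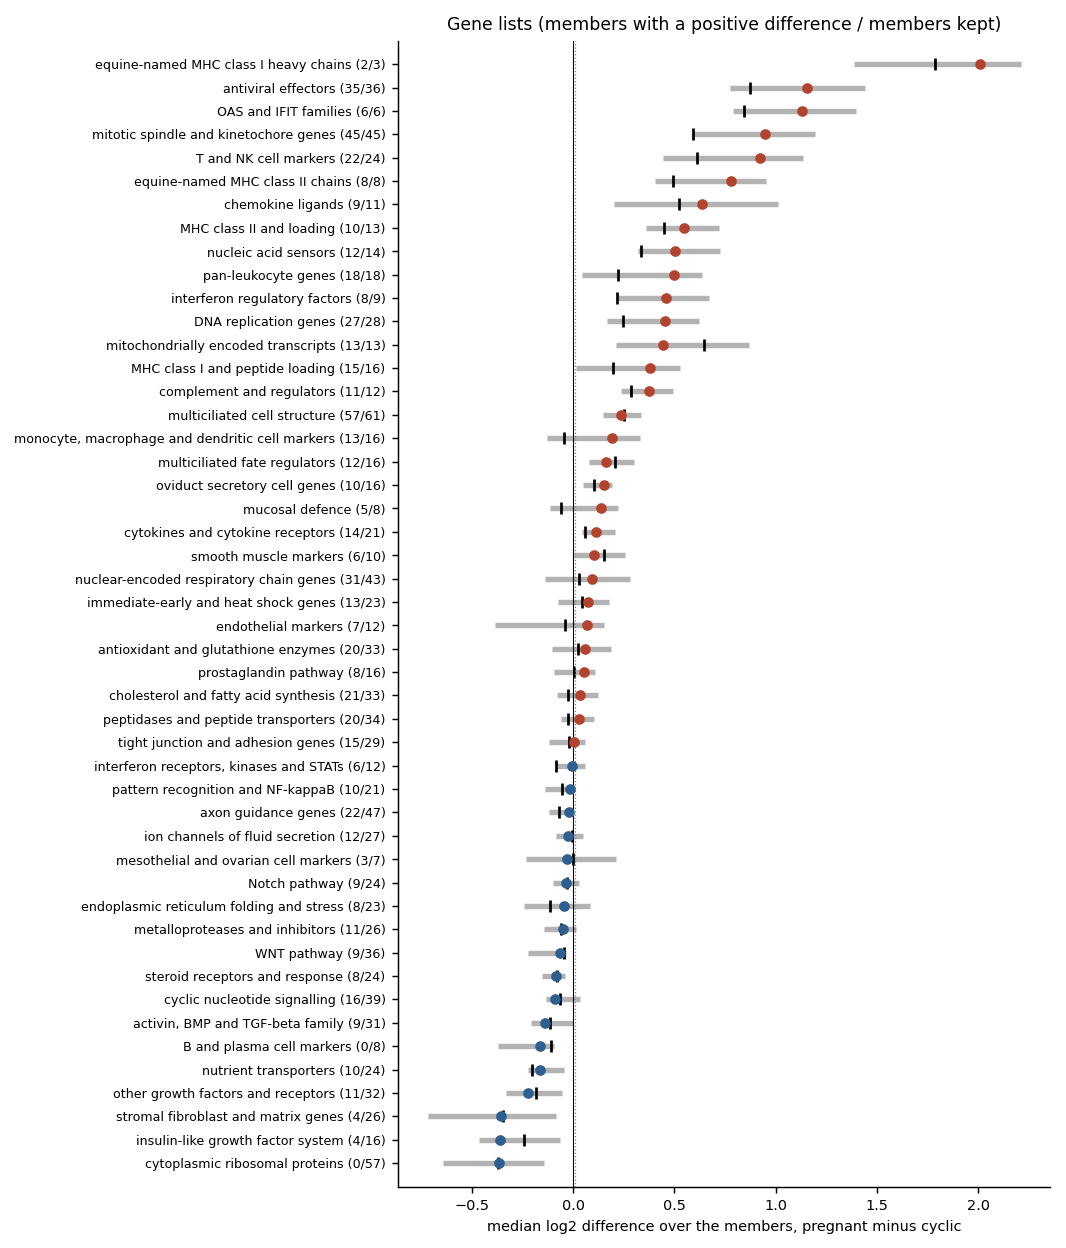
Median log2 difference (pregnant minus cyclic) over the kept members of 48 gene lists, in red above 0 and blue below; grey bars span all alternative settings, black ticks are the value without PC4 and the dotted line is the median of all features. Equine-named MHC class I heavy chains lie highest, at 2.01 from 3 kept members. Antiviral, OAS and IFIT, T and NK and mitotic lists lie between 0.92 and 1.16, and ribosomal, insulin-like growth factor and stromal lists near −0.37.

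Whether these differences were particular to the contralateral oviduct was tested by the interaction of pregnancy and side. By limma 0 features passed an adjusted p of 0.05, and 47 (0.32%) had an unadjusted p under 0.05. That fit does not pair the 2 sides, although pregnant libraries of the same number deviated together on both sides (correlations of 0.53 to 0.70), as did cyclic numbers 1, 2 and 5 (0.295, 0.679 and 0.621) but not 3 and 4 (0.0228 and −0.0408). The labels do not say whether these share a mare. With status and number as a random block, chosen after seeing the data, again 0 passed the adjusted threshold, and 225 (1.53%) had an unadjusted p under 0.05. A difference between the sides is therefore neither called nor shown to be absent.

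NLN differed by −0.67 ± 0.14 on the ovulation side, ANPEP by −0.82 ± 0.19, NTNG1 by −0.88 ± 0.28, SLC15A2 by −0.96 ± 0.27, CCDC96 by 0.45 ± 0.18 and MX1 by 1.41 ± 0.55, each in the same direction as here. For CCDC96 the interaction was 0.41, with an unadjusted limma p of 0.124 without and 0.0487 with the block. It was the only 1 of 61 structural cilia genes under 0.05 with the block. Antiviral effectors had a median of 0.73 on that side, ribosomal proteins −0.44, stromal genes −0.45 and multiciliated structure 0.20. The mitotic list had a median of 0.10 there against 0.95 here, and 44 of its 45 interactions were positive, with a median of 0.82. None of the 45 reached an unadjusted interaction p of 0.05 without the block, and 5 did with it: ANLN, CENPI, KIF11, KIF14 and SPC24. DNA replication genes had a median of 0.042 against 0.45, with 27 of 28 interactions positive (median 0.41), and 0 without and 2 with the block under that p, CDC6 and TOP2A. Mostly positive interactions were not particular to these lists. They were found in 42 of 43 respiratory chain genes (median 0.31), 16 of 16 MHC class I and loading genes and 49 of 57 ribosomal proteins. In the WNT and Notch lists 17 of 36 and 12 of 24 were positive. The share of positive interactions over all features was not counted. The members share libraries, and the mitotic and replication levels here rest in part on PC4 and, for the mitotic list, CC1. TOP2A differed by −0.071 ± 0.60 on the ovulation side (interaction 1.31 ± 0.85), CENPM by −0.14 ± 0.47 (interaction 1.83 ± 0.67) and CXCL10 by −0.088 ± 0.81 (interaction 2.05 ± 1.15). KITLG differed by −0.051 ± 0.35 there (interaction −1.03 ± 0.49). In the other lists NKG7 of killer cells (1.24 ± 0.49) and the matrix-associated factor CTGF (−0.66 ± 0.27) also had an unadjusted interaction p under 0.05 without the block. CENPI, KIF11, KIF14, CDC6, NKG7 and CTGF are named after their values were seen.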

How the data were processed

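RNA-seq of the 20 libraries was deposited as 1 table of TMM-scaled values per feature, a signal in normalized counts that the authors deposited. Base calling used CASAVA 1.8, per the submitters' processing notes; the sources used here name no aligner, counter or genome build. The labels' protocols describe a stranded total RNA kit with depletion of ribosomal RNA, while the molecule label reads polyA RNA. Within a column the values are whole multiples of 1 step, which gave whole reads for 100% of the values (tolerance 0.01), and depth is the sum of those reads.

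Features above 1 CPM in at least 5 of 20 libraries were fitted with limma 3.58.1 (R 4.3.3; log2 after adding 0.5 CPM, 3.03 normalized counts; 4 group means; moderated, trended and robust variances; Benjamini-Hochberg over 14692 features). The recovered reads were tested with edgeR 4.0.16 (quasi-likelihood) and DESeq2 1.42.0 as alternatives. Only the limma fit was also run on simulated data, and the outcome is not given here. P-values measure only the spread between these libraries.

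Genes are named by rule: the 12 smallest limma p with a symbol in each direction, 37 genes of interest, in each list the 3 kept members of smallest p and the one most opposite to the list median, and the genes called by edgeR or DESeq2. The genes of interest include CCDC96, NLN, ANPEP, NTNG1, LRCH2, SLC15A2, MMP7 and ADAMTS18, which are also among the smallest p. They are therefore not shown to be a choice independent of these data. Genes outside the rule are said to be named after their values were seen. IFIT3 and MKI67 were not found by symbol. The comparison and the lists were chosen with earlier results of these data known, and 3 lists of equine-named genes were added after values were seen. EQMHCB2 and EQMHCC1 were moved from the class II to the class I list once the table was read. Some genes of the rule are not reported here. No sequences are given.

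Same-numbered pregnant and cyclic contralateral libraries had correlations of −0.0399, 0.488, 0.109, −0.396 and −0.0354 for numbers 1 to 5. Those numbered 2 deviated together (0.488), and the other numbers lay between −0.396 and 0.109. The main fit used no pairing, since the labels give no shared mare, day or batch between pregnant and cyclic libraries.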

Additional observations from a re-analysis of the deposited data

Results flagged for a closer look

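Within a group of 5 libraries, a value was listed here when the highest or lowest library stood apart from the nearest other by more than Dixon's 95% limit. This was so in 13 of 202 gene and list groups looked at, where about 10.1 would be expected at 1 in 20.

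Among the pregnant libraries, PTPRC of leukocytes was 703.8 normalized counts in PC4, with the next library at 268.1. The score of a list, its mean log2 level, stood apart in PC4 for equine-named MHC class II chains (11.21, next 9.74) and mucosal defence (8.98, next 8.203). PC1 was highest for multiciliated structure (10.66, next 10.37) and lowest for ion channels of fluid secretion (6.93, next 7.12). PC2 was highest for the Notch pathway (7.97, next 7.76), and SEMA6A was 311 in PC3, with the next library at 222.

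Among the cyclic libraries, CC1 was lowest for the mitotic list (4.44, next 5.63), for TOP2A (64.6 normalized counts, next 216) and for CDK1 (7.91, next 41.3). HK1 was lowest in CC4 (631, next 1016) and OVGP1 highest there (11.7, next 1.32, close to the floor of 3 reads). PTGES was lowest in CC5 (2.30, next 11.7).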

How the results depend on the processing

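Of 48 list medians, 30 kept their sign under every setting tried, and 51 of 53 genes followed did so. The fits of the contralateral libraries alone and with either replicate block leave each difference unchanged by construction. They could not turn a sign, though they count among the alternative settings. Many of the 53 genes were chosen for a small p in these same data, so their stable sign is no separate support. Scaled to column totals without TMM, limma called 1 feature (ANPEP) and 237 were higher at an unadjusted p under 0.05. DESeq2 called 12, with 426 lower at that p, or 6 with its default filtering target of 0.1, a choice added after seeing the data. Library weights gave 6 calls (ANPEP, CCDC96, LRCH2, MMP7, NLN and SLC15A2), 654 higher and 720 lower, an endothelial median of −0.38 and a mesothelial median of 0.21. With log2 reads as a covariate 1 feature was called (FOLH1) and 596 were lower. Without PC4 and CC4, also added after seeing the data, 212 were higher. Leaving out 1 library gave 182 (without PC4) to 558 (without PC5) higher, with 267 without CC1, and 173 (without PC4) to 412 (without CC5) lower. DESeq2 then called 3 (without PC4, CC2 or CC3) to 32 (without CC5), with 31 without PC2, 5 without PC1 and 7 without CC1. PAX8 turned to 0.016 with library weights, 0.022 with log2 reads and 0.094 without PC4 and CC4, and ranged from −0.11 to 0.040 without 1 library. MYH11 turned to 0.082 by edgeR, 0.083 by DESeq2 and 0.20 with library weights, and ranged from −0.83 to 0.092 without 1 library. The cause of these shifts was not tested.

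With the number as a replicate block, limma called 0 features, with 372 higher and 273 lower at an unadjusted p under 0.05. With a block of status and number as a random term it called 0, with 443 higher and 276 lower. Neither block changed a call. For the interaction of pregnancy and side the random block gave 0 calls and 225 features at an unadjusted p under 0.05, against 47 without it. Libraries hold 3407805 to 10015464 reads, so genes with few reads per library, such as OVGP1 and the interferon ligands found other than IFNK, cannot be compared.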
